A study of Mus musculus with 48 samples.

Results

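Migratory dendritic cells (mDC) sorted from lymph nodes labelled LN were compared between mice given cisplatin, a platinum compound that crosslinks DNA, and mice given PBS, the vehicle. The comparison uses 6 of the 48 RNA libraries of the series, 3 per treatment, chosen by their labels for cell type, tissue and treatment. All are labelled wild type mouse, and the design text of the series speaks of tumor-bearing animals whose nodes were digested and sorted for myeloid cells. The labels give no strain, age, dose or time after treatment, do not say which tissue the LN drained or whether the LN mice carried tumors, and do not state whether replicate libraries stem from different mice. The p-values therefore rest on spread between libraries that may be technical. The mDC of tumor-draining nodes (TDLN) and the resident dendritic cells (rDC) of the LN, each with 3 PBS and 3 cisplatin libraries, served to see where the LN mDC response differed.

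Migratory dendritic cells take up antigen in peripheral tissue, mature, and travel along lymph vessels to the node, guided by the chemokine receptor CCR7. There they present peptides to T cells on MHC class II, and on MHC class I when they cross-present. Maturation raises costimulatory molecules and lowers antigen uptake, whereas resident dendritic cells develop within the node and retain uptake receptors. Cisplatin enters cells and links bases of DNA, and the lesions are known to activate p53 and the crosslink and nucleotide excision repair pathways.

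The LN mDC libraries held 2511806 to 3653407 counts with cisplatin and 2002713 to 2687195 with PBS. In TDLN mDC the libraries with PBS were deeper (11424067 to 15481059 counts) than those with cisplatin (2858543 to 2952751). The LN rDC libraries also were deeper with PBS (10733509 to 14869939 counts) than with cisplatin (2986600 to 3570676). Levels are CPM, the counts scaled to a common library total. Fscn1, the actin-bundling protein of mature dendritic cells, stood at 7900.4 to 8903 CPM with cisplatin and 8141 to 8435 CPM with PBS in LN mDC, against 22.6 to 36.8 and 88.9 to 106 CPM in the rDC of the same nodes. Ccr7 stood at 11097 to 12115 and 12889 to 13914 CPM in LN mDC, and at 1099.9 to 1186 and 977 to 1049 CPM in rDC. Both markers were thus far higher in the cells labelled mDC than in those labelled rDC. Within the 4 mDC groups no 2 libraries of a group agreed within sampling noise in a chi-square test of their counts.

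With cisplatin the LN mDC had higher RNA of MHC class II genes, of lectins and other uptake receptors, and of chaperones. They had lower RNA of cholesterol synthesis genes and of several MHC class I, maturation and NF-kB genes. Few DNA repair genes passed the test. RNA of digestive enzymes of the pancreas and of B cells also rose. Of 12519 genes tested, 770 rose (6.15%) and 604 fell (4.82%), which makes 11% called in either direction. Counts of list members below are read against these shares. Without replicate 1 of the cisplatin libraries 399 genes fell. Changes were mostly small: 186 genes rose by more than 1 log2 unit (1.49%) and 54 fell by more than 1 log2 unit (0.431%). The median log2 fold change over all tested genes was -0.00931. Adjusted p-values come from the quasi-likelihood test of edgeR, with Benjamini-Hochberg adjustment and a threshold of 0.05, log2 fold changes are cisplatin minus PBS with their standard error, and a gene is said to rise or fall only where it passed.

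**Figure D1:**
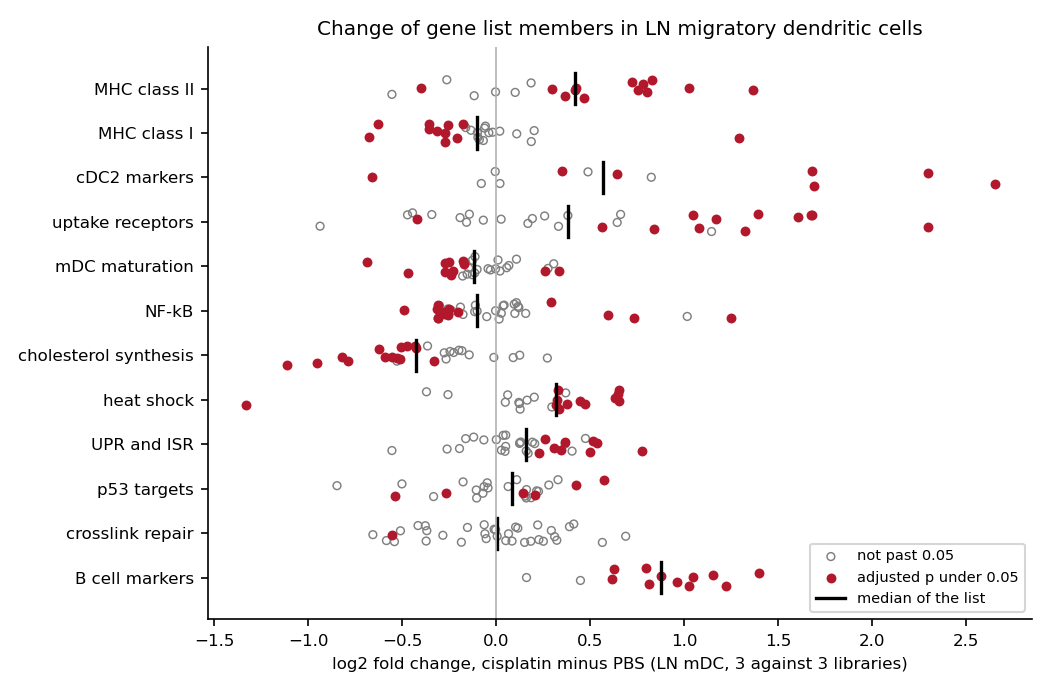
Log2 fold change (horizontal axis, cisplatin minus PBS, 3 against 3 LN mDC libraries) of the tested members of 12 gene lists (rows), each point 1 gene, filled where the adjusted p is under 0.05, with the median of the list as a bar. MHC class II, cDC2 and B cell markers lie mostly right of 0, while cholesterol synthesis genes lie mostly left of it.

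Of the 19 MHC class II presentation genes, all tested, 12 rose and 1 fell with cisplatin, with a median log2 fold change of 0.42. The list holds the chains of the class II molecules, the loading factors, the invariant chain and the transcription factors. H2-Ab1, a beta chain of the class II molecule I-A (ENSMUSG00000073421, GRCm38 chromosome 17, 34257689 to 34269419, plus strand), had 6108, 6283 and 6832 CPM in the cisplatin libraries and 3828, 3390.4 and 3596 CPM in the PBS libraries. The 2 groups lay far apart, and the lowest cisplatin library exceeded the highest PBS library (log2 fold change 0.83 ± 0.0513, adjusted p = 7.16e-11). Its partner chain H2-Aa rose by 0.42 (adjusted p = 1.88e-07) and H2-Eb1, the beta chain of I-E, by 0.37 (adjusted p = 4.62e-05) on the log2 scale. Cd74, the invariant chain that guides class II molecules to the endosome, had 16067, 16625 and 17823 CPM in the cisplatin libraries and 12948, 11296 and 12256 CPM in the PBS libraries, again without overlap (log2 fold change 0.47 ± 0.0506, adjusted p = 5.49e-07).

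The factors that load peptide followed the same direction. H2-DMa, a chain of the exchange factor H2-DM, had 161, 155 and 169.6 CPM in the cisplatin libraries and 109, 78.4 and 87.4 CPM in the PBS libraries (log2 fold change 0.80 ± 0.0946, adjusted p = 1.94e-06). H2-DMb1 changed by 0.75 (adjusted p = 8.05e-07) and H2-DMb2 by 0.72 (adjusted p = 3.97e-07). H2-Ob, a chain of H2-DO that restrains H2-DM, had 63.2, 47.1 and 60.9 CPM in the cisplatin libraries and 27.9, 29.4 and 26.98 CPM in the PBS libraries (log2 fold change 1.03 ± 0.140, adjusted p = 1.71e-05), and all 3 cisplatin values were above all 3 PBS values. Ciita, the transactivator that switches on class II genes, had 208, 235 and 239.6 CPM in the cisplatin libraries and 135, 139.8 and 122 CPM in the PBS libraries (log2 fold change 0.78 ± 0.0812, adjusted p = 3.10e-07). March1, a ubiquitin ligase that removes class II molecules from the surface, was low in all 6 libraries and also rose, from 3.43 to 6.98 to 12.9 to 16.1 CPM (log2 fold change 1.36 ± 0.280, adjusted p = 0.00175). The one member that fell was Rfx5, a subunit of the complex that binds the class II promoters (log2 fold change -0.40 ± 0.110, adjusted p = 0.0179). That call was lost without the filter on low counts (adjusted p = 0.0725), without replicate 1 or 2 of the cisplatin libraries (adjusted p = 0.0583 and 0.0932) or replicate 1 of the PBS libraries (adjusted p = 0.167). Ctss, the protease that trims the invariant chain, did not pass (log2 fold change 0.10, adjusted p = 0.283).

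The promoters of class II genes carry an X box, bound by the RFX complex, and a Y box, bound by NF-Y, and the assembled factors recruit CIITA, which does not bind DNA itself. The letters AACNGATG (X box core) and CTGATTGG (Y box) were searched on both strands in RefSeq promoter windows of GRCm38.p6, from 250 bases before to 50 after the start. The X box core was in 2.32% of 32851 promoters and in those of 5 of the 13 list genes that matched the table, namely Ctss, H2-DMb1, H2-DMb2, H2-Eb1 and H2-Eb2. The share counts windows, while a list gene counts if any of its windows matches, and the 13 genes have 15 windows. The Y box letters were in 4.1% of all promoters and in those of 4 of the 13, namely H2-Aa, H2-Eb1, H2-Eb2 and H2-Oa. Of these 7 genes H2-Eb2 (log2 fold change -0.26, adjusted p = 0.17) and Ctss did not pass, and the other 5 rose. A match is a description of the letters and not a bound site. The windows of 3 genes that rose are shown, with the X box core in capitals at 89 (H2-Eb1), 92 (H2-DMb1) and 121 (H2-DMb2) bases before the start. In H2-Eb1 the Y box, 62 bases before the start, is also in capitals, and the 2 do not overlap.
H2-Eb1 (chr17:34305617-34305916, plus strand): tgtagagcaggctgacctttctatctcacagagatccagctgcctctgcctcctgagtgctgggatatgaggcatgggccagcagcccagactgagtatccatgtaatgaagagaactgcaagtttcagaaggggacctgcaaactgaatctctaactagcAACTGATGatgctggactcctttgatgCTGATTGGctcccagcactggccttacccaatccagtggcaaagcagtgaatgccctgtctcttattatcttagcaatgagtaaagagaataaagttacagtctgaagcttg
H2-DMb1 (chr17:34152941-34153240, plus strand): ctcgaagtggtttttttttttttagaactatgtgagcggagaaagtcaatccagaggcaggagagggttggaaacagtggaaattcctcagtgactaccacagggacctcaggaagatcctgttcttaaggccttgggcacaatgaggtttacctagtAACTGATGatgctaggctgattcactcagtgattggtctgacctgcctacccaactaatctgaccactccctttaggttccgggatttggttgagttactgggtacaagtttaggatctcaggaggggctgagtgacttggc
H2-DMb2 (chr17:34144999-34145298, plus strand): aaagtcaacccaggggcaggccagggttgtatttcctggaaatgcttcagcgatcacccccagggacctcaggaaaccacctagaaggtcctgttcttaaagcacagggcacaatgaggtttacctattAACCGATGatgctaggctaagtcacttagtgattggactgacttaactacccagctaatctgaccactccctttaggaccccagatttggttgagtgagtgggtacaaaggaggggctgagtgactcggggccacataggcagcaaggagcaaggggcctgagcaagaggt

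Other antigen-presenting cells hold class II RNA as well, and some of their markers rose in the same libraries. Of 13 tested B cell markers 11 rose and 2 did not pass, and the list, which includes Cd79a and Ms4a1, summed to 558.8 to 594.0 CPM with cisplatin and 331.0 to 337.6 CPM with PBS. Cd79a, a signalling chain of the B cell receptor, had 72.7, 67.2 and 80.7 CPM in the cisplatin libraries and 35.7, 26.8 and 30.4 CPM in the PBS libraries (log2 fold change 1.22 ± 0.116, adjusted p = 8.66e-08). The same sum was 5397.4 to 5744.9 CPM in LN rDC with cisplatin. In TDLN mDC it was 726.8 to 762.4 CPM with cisplatin and 483.3 to 502.5 CPM with PBS, both above the LN PBS group. Counted gene by gene, all 11 B cell genes that rose were lowest in the LN PBS libraries among the 12 mDC libraries. Of the 12 class II genes that rose, 9 were instead highest in the LN cisplatin libraries, and 1 was lowest in LN PBS. H2-Ab1, for example, stood at 3427, 3200.3 and 3231 CPM in TDLN mDC with cisplatin and 2341, 2215 and 2223 CPM with PBS, while Cd79a stood at 77.3, 80.3 and 79.3 CPM with cisplatin and 48.4, 51.9 and 54.1 CPM with PBS. The resident dendritic cell markers summed to 363.9 to 389.8 CPM with cisplatin and 221.8 to 228.7 CPM with PBS. No marker of the B cell list was at 0. The part of B cells or rDC in the class II change was not tested. In these bulk libraries more cells of a type and more RNA per cell cannot be told apart.

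MHC class I genes took the other direction. Of 25 tested members of the class I presentation list, 10 fell and 1 rose, with a median log2 fold change of -0.10. H2-K1, a classical class I heavy chain, had 6883, 7069.7 and 7545 CPM in the cisplatin libraries and 8510.0, 7838 and 8484 CPM in the PBS libraries, a small fall without overlap (log2 fold change -0.21 ± 0.0444, adjusted p = 0.00252). H2-Q7, a non-classical class I molecule, had 1751, 1814 and 1809 CPM in the cisplatin libraries and 2841, 2567 and 2900.5 CPM in the PBS libraries (log2 fold change -0.63 ± 0.0475, adjusted p = 2.11e-09). H2-Q7, H2-Q6 and H2-Q4 are near-identical copies between which reads could be split, so their single values are uncertain. Psmb9, an immunoproteasome subunit that makes class I peptides, fell by 0.31 on the log2 scale (adjusted p = 0.00688), and this call did not hold without replicate 1 of the PBS libraries (adjusted p = 0.074). Tap2, a chain of the peptide transporter, changed by -0.18 (adjusted p = 0.0356). The member that rose was Wdfy4, which is needed for cross-presentation, with 94.1, 83.9 and 102 CPM in the cisplatin libraries and 46.1, 25.3 and 39.8 CPM in the PBS libraries (log2 fold change 1.29 ± 0.139, adjusted p = 5.45e-07). Among the 12 mDC libraries Wdfy4 was lowest in the LN PBS libraries, the order that the rising B cell genes had.

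**Figure D2:**
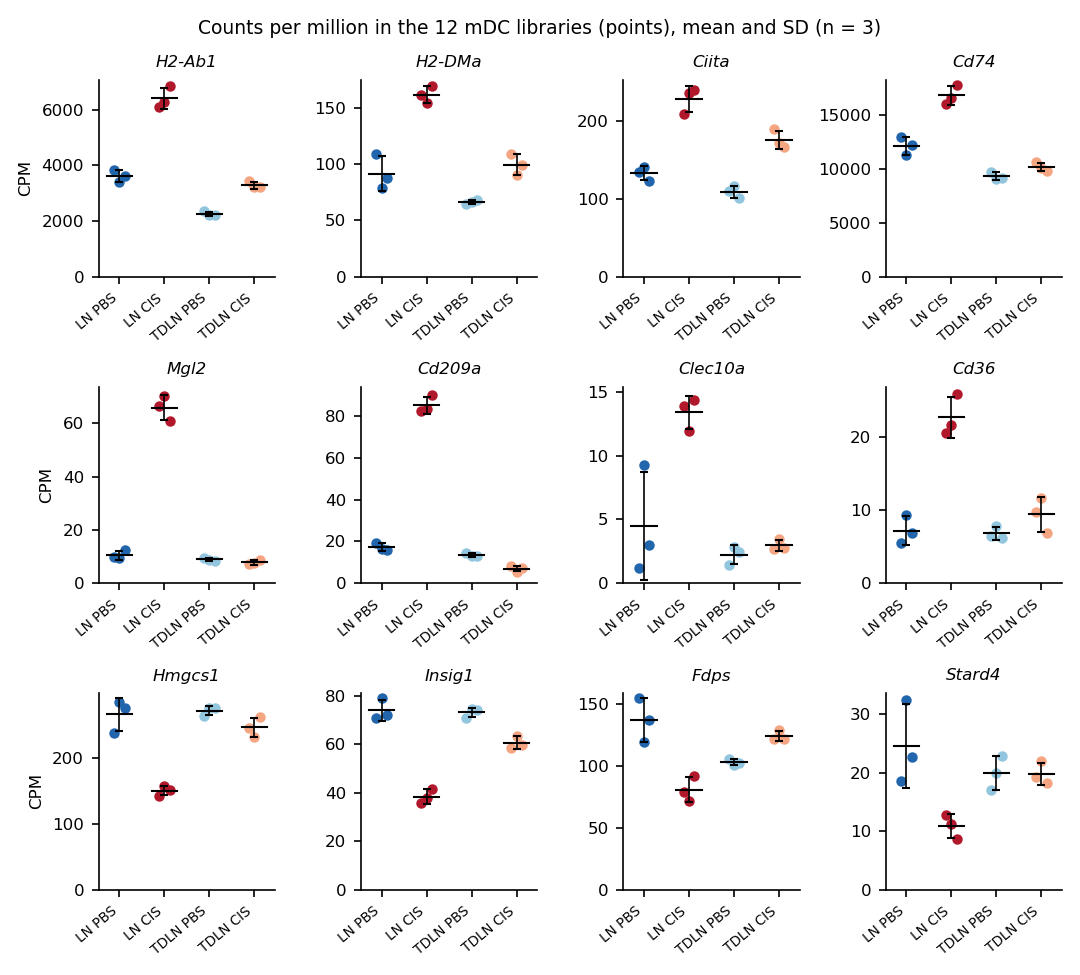
CPM (vertical axes, each from 0) of 12 genes in the 12 mDC libraries, 3 points per group with mean and SD. MHC class II genes (top row) and uptake receptors (middle row) are highest in LN cisplatin, and cholesterol synthesis genes (bottom row) are lowest there, with H2-Ab1 at 6108 to 6832 CPM and Hmgcs1 at 143 to 158 CPM in that group.

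Lectins and other uptake receptors were a further group that rose. Of 29 tested uptake and scavenging receptors, 11 rose and 1 fell, and of 12 tested markers of the conventional dendritic cell 2 (cDC2) lineage, 6 rose and 1 fell. Median log2 fold changes were 0.38 and 0.57, and the lists share Cd209a and Clec10a. Mgl2, a galactose-binding lectin of cDC2 (ENSMUSG00000040950, GRCm38 chromosome 11, 70130329 to 70137550, plus strand), had 66.5, 70.4 and 60.9 CPM in the cisplatin libraries and 9.69, 9.28 and 12.4 CPM in the PBS libraries. Each cisplatin library was several times higher than any PBS library (log2 fold change 2.65 ± 0.156, adjusted p = 3.04e-11). Cd209a, a mannose-binding lectin of the DC-SIGN family, had 82.4, 83.6 and 90.1 CPM in the cisplatin libraries and 19.4, 16.5 and 15.8 CPM in the PBS libraries (log2 fold change 2.30 ± 0.135, adjusted p = 3.04e-11). Its relatives Cd209d and Cd209e also rose, by 1.61 (adjusted p = 0.000497) and 1.46 (adjusted p = 0.000399), while Cd209b fell (log2 fold change -1.63 ± 0.323, adjusted p = 0.00126). Cd209e and Cd209b were not on the list. Clec10a, the paralog of Mgl2, had 13.9, 11.9 and 14.4 CPM in the cisplatin libraries and 1.16, 9.28 and 3.00 CPM in the PBS libraries, with 1 PBS library near the cisplatin range (log2 fold change 1.68 ± 0.413, adjusted p = 0.00827). Without replicate 1 or 3 of the PBS libraries (adjusted p = 0.0609 and 0.0553) it did not pass.

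Cd36, a scavenger receptor for lipids and dying cells, had 20.6, 21.6 and 25.9 CPM in the cisplatin libraries and 5.43, 9.28 and 6.85 CPM in the PBS libraries (log2 fold change 1.68 ± 0.239, adjusted p = 2.98e-05). Clec7a, the receptor for fungal beta-glucan known as dectin-1, had 152, 159 and 137 CPM in the cisplatin libraries and 48.8, 79.9 and 54.4 CPM in the PBS libraries (log2 fold change 1.32 ± 0.132, adjusted p = 1.74e-07). Havcr2, which encodes the phosphatidylserine receptor TIM-3, rose by 1.17 (adjusted p = 0.000582), and Axl, a receptor tyrosine kinase for apoptotic cells, by 1.05 (adjusted p = 0.000448). In each of these genes the 3 cisplatin values lay above the 3 PBS values. Ly75, the uptake receptor DEC-205 that mature dendritic cells carry, had 257, 252 and 235 CPM in the cisplatin libraries and 312, 375 and 315 CPM in the PBS libraries and was the member that fell (log2 fold change -0.42 ± 0.0670, adjusted p = 0.000125). Sirpa, the cDC2 surface receptor, rose slightly (log2 fold change 0.35 ± 0.0661, adjusted p = 0.000803), and Irf4, a transcription factor of migrating cDC2, fell (log2 fold change -0.66 ± 0.0998, adjusted p = 6.05e-05), so members of the cDC2 list did not move as one.

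Some genes of myeloid cells rose beside the lectins. Of 9 tested monocyte markers 5 rose and 4 did not pass, with sums of 863.3 to 939.9 CPM with cisplatin and 558.0 to 618.4 CPM with PBS. Among them Ccr2, the chemokine receptor by which monocytes leave the marrow, had 15.9, 24.2 and 20.2 CPM in the cisplatin libraries and 8.92, 7.74 and 5.14 CPM in the PBS libraries (log2 fold change 1.45 ± 0.254, adjusted p = 0.000362). Of 12 tested macrophage markers 4 rose and 1 fell, with sums of 1258.4 to 1328.7 CPM with cisplatin and 902.0 to 955.7 CPM with PBS. The macrophage list as a whole did not shift, with a median log2 fold change of 0.0077 and 6 of the 12 above 0. The monocyte list had a median of 0.60. Of all tested genes 6.15% rose and 4.82% fell. Csf1r, the receptor for macrophage colony-stimulating factor, had 145, 131 and 158 CPM in the cisplatin libraries and 65.5, 64.5 and 69.4 CPM in the PBS libraries (log2 fold change 1.12 ± 0.102, adjusted p = 4.39e-08), whereas Siglec1, the sialic acid receptor of lymph node macrophages, changed by -1.31 (adjusted p = 0.00459). The resident dendritic cell list had 5 of 9 rising and 4 that did not pass, all 5 highest in the LN cisplatin libraries, and 2 rose without cisplatin replicate 2. T cell markers were at 405.4 to 444.3 against 386.3 to 433.2 CPM, and of 16 tested only Cd4 rose (log2 fold change 0.67 ± 0.175, adjusted p = 0.013). That call was lost without replicate 2 of the cisplatin libraries (adjusted p = 0.0719) or replicate 3 of the PBS libraries (adjusted p = 0.0789). None of the monocyte, macrophage or T cell markers was at 0 in all 6 libraries. The part of these cells in the lectin change was not tested.

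A wider look at rDC genes defined them with libraries outside the comparison. In the TDLN with PBS, 890 tested genes were higher in rDC than in mDC by more than 2 log2 units. Of these, 207 (23.3%) rose with cisplatin in LN mDC and 11 (1.24%) fell, with a median log2 fold change of 0.31. Conversely, of 1130 tested genes higher in mDC by more than 2 log2 units, 41 (3.63%) rose and 190 (16.8%) fell, with a median of -0.13. Among all tested genes 6.15% rose and 4.82% fell. These shares stand side by side without a test. Genes had to be expressed in an mDC library group to be tested, which held for 890 of 1857 rDC-typical genes. That filter included the LN mDC libraries themselves. An rDC-typical gene low with PBS could enter through the LN cisplatin libraries, which favors rises in this set. The share of all tested genes is thus not a like reference for it.

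**Figure D3:**
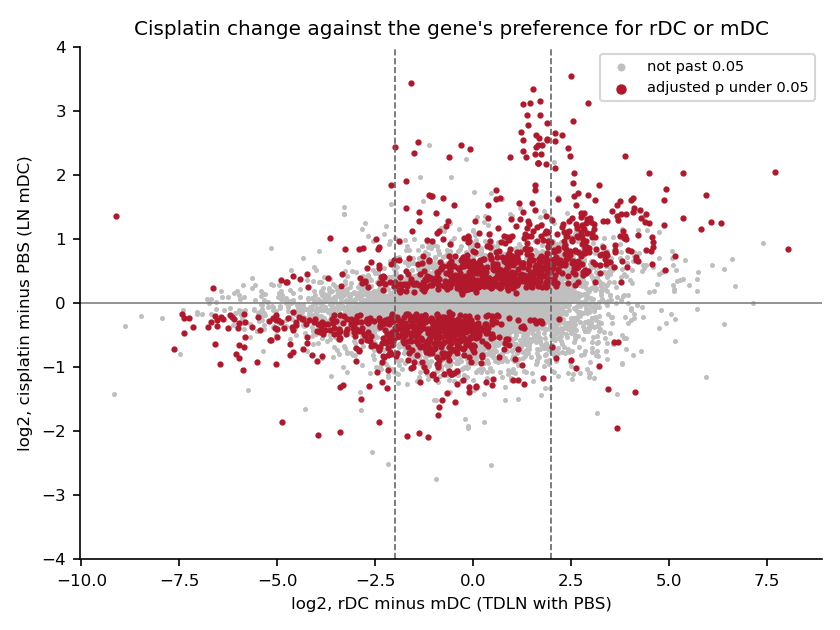
Log2 fold change with cisplatin in LN mDC (vertical axis) against the log2 difference between rDC and mDC in TDLN with PBS (horizontal axis), 1 point per gene, with 6 genes beyond the plotted range of 4. Dashed lines mark 2 log2 units in either direction. Red points (adjusted p under 0.05) right of the right line lie mostly above 0.

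Genes of maturation shifted a little downward. Of 30 tested genes of the migratory maturation program, 9 fell and 2 rose (1 without cisplatin replicate 3). Of all tested genes 4.82% fell and 6.15% rose. The list had a median log2 fold change of -0.12. Ccr7 had 11097, 11129 and 12115 CPM in the cisplatin libraries and 13794, 12889 and 13914 CPM in the PBS libraries. The PBS values were all higher, though by a small margin (log2 fold change -0.24 ± 0.0444, adjusted p = 0.000614). Ccl22, the chemokine with which mature dendritic cells attract regulatory T cells, had 2549, 2688 and 2580.4 CPM in the cisplatin libraries and 3669.8, 3488 and 3668 CPM in the PBS libraries (log2 fold change -0.47 ± 0.0424, adjusted p = 3.86e-08). Adcy6, an adenylate cyclase, had 167, 160.1 and 169 CPM in the cisplatin libraries and 259, 279 and 263 CPM in the PBS libraries (log2 fold change -0.69 ± 0.0613, adjusted p = 3.23e-08). Fscn1 had a log2 fold change of 0.01 (adjusted p = 0.939), Cd83 of -0.00 (adjusted p = 0.976) and Cd40 of 0.06 (adjusted p = 0.534), and none of these 3 maturation markers passed.

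Of 35 tested NF-kB genes 10 fell and 4 rose, where 4.82% and 6.15% of all tested genes did. The list had a median log2 fold change of -0.10. The feedback inhibitors Nfkbia and Tnfaip3 changed by -0.32 (adjusted p = 0.000699) and -0.31 (adjusted p = 1.42e-05). Ptgs2, the enzyme that makes prostaglandins, changed by -0.49 (adjusted p = 7.04e-06). In contrast Nfkb1, the p50 subunit, had 100.2, 90.7 and 90.1 CPM in the cisplatin libraries and 53.5, 55.7 and 60.8 CPM in the PBS libraries (log2 fold change 0.73 ± 0.0907, adjusted p = 4.25e-06), and the chemokine Ccl4 had 16.4, 22.3 and 23.1 CPM in the cisplatin libraries and 10.9, 7.22 and 7.28 CPM in the PBS libraries (log2 fold change 1.25 ± 0.228, adjusted p = 0.000577). Relb, the subunit of the non-canonical pathway, did not pass (log2 fold change -0.11, adjusted p = 0.208). Among 22 tested Toll-like receptor genes 5 rose and 17 did not pass. Rises above 1 log2 unit included those of Cd14, the coreceptor for lipopolysaccharide, by 1.29 (adjusted p = 0.000114) and Tlr1, by 1.18 (adjusted p = 4.30e-05).

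Some molecules that tune T cell responses rose and fewer fell. Of 19 tested costimulatory and checkpoint ligands 4 rose and 1 fell, where 6.15% and 4.82% of all tested genes did. The rises of Lgals9 and Cd86 did not pass without replicate 1 or 3 of the cisplatin libraries or in the 6 LN mDC libraries alone. Among the 12 mDC libraries 3 of the 4 that rose were lowest in LN PBS and 0 were highest in LN cisplatin. In TDLN mDC 8 of the 19 rose and 2 fell, where 14.1% and 13.2% of all tested genes did. The difference between nodes was called higher in the LN for 2 and lower for 4. Btla, an inhibitory receptor that B cells also carry, had 40.4, 33.3 and 37.5 CPM in the cisplatin libraries and 12.4, 16.5 and 14.6 CPM in the PBS libraries (log2 fold change 1.37 ± 0.161, adjusted p = 1.89e-06). Cd274, which encodes PD-L1, had 343, 355 and 345 CPM in the cisplatin libraries and 409, 454 and 412 CPM in the PBS libraries (log2 fold change -0.29 ± 0.0559, adjusted p = 0.00102). Cd80 had 52.3, 43.9 and 41.98 CPM in the cisplatin libraries and 37.99, 37.6 and 34.3 CPM in the PBS libraries, which did not pass (log2 fold change 0.34 ± 0.119, adjusted p = 0.068), and Il12b, a subunit of interleukin 12, had a log2 fold change of -0.10 (adjusted p = 0.361). In the regulatory list 6 of 24 rose and 3 fell, and 1 fell without cisplatin replicate 1 or 2 or PBS replicate 3. Lrrc32, which holds latent TGF-beta at the surface, had 17.8, 13.9 and 16.1 CPM in the cisplatin libraries and 4.65, 4.13 and 7.28 CPM in the PBS libraries (log2 fold change 1.56 ± 0.282, adjusted p = 0.000496). Aldh1a2, which makes retinoic acid, did not pass (log2 fold change 0.15, adjusted p = 0.199). The series title names interleukin 33. Il33 had 0.835, 1.61 and 1.65 CPM with cisplatin and 1.16, 3.09 and 2.14 CPM with PBS, and its receptor gene Il1rl1 had 2.78, 2.91 and 0.823 CPM with cisplatin and 3.49, 0.516 and 2.57 CPM with PBS. The groups overlapped in both genes, and neither gene passed the filter on low counts, so neither was tested.

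Cholesterol synthesis genes fell together. Sterol-depleted cells switch on the whole pathway through the transcription factor SREBP2, which is held in the endoplasmic reticulum by INSIG proteins when sterol is ample. Of 27 tested genes of cholesterol synthesis and uptake, 14 fell, 13 did not pass and 0 rose, with a median log2 fold change of -0.43. At an unadjusted p under 0.05 edgeR also put 0 members higher, and so did DESeq2 after adjustment. Of the 14, 11 were lower in the LN cisplatin libraries than in any other mDC library. Hmgcs1, which makes HMG-CoA (ENSMUSG00000093930, GRCm38 chromosome 13, 119690379 to 119708260, plus strand), had 143, 158 and 151 CPM in the cisplatin libraries and 239, 286 and 277 CPM in the PBS libraries (log2 fold change -0.82 ± 0.0732, adjusted p = 3.23e-08). The groups did not overlap. Fdps, which builds farnesyl diphosphate, had 78.5, 71.4 and 91.4 CPM in the cisplatin libraries and 154, 119 and 137 CPM in the PBS libraries (log2 fold change -0.79 ± 0.0948, adjusted p = 2.75e-06), and Lss, which closes the sterol rings, changed by -0.63 (adjusted p = 0.000988).

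Regulators and carriers of the pathway fell with the enzymes. Insig1 had 35.6, 37.8 and 41.6 CPM in the cisplatin libraries and 70.9, 78.9 and 71.9 CPM in the PBS libraries (log2 fold change -0.95 ± 0.0985, adjusted p = 2.90e-07). Srebf2, the gene of SREBP2, had 317, 276 and 323 CPM in the cisplatin libraries and 431, 449.7 and 440.2 CPM in the PBS libraries (log2 fold change -0.53 ± 0.0605, adjusted p = 1.24e-06). Stard4, a sterol carrier, had 12.8, 11.3 and 8.64 CPM in the cisplatin libraries and 18.6, 32.5 and 22.7 CPM in the PBS libraries, the largest fall of the list (log2 fold change -1.11 ± 0.220, adjusted p = 0.00119). Abca1, which exports cholesterol and answers to the sterol sensor LXR, did not pass (log2 fold change -0.05, adjusted p = 0.915). Scd1, a fatty acid desaturase outside the sterol list, rose (log2 fold change 1.04 ± 0.150, adjusted p = 3.60e-05), while its paralog Scd2 changed by -0.50 (adjusted p = 0.00184).

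SREBP2 binds sterol regulatory elements near the start of these genes. The core letters TCACNCCA, on either strand, were in 4.36% of the same 32851 promoter windows and in those of 3 of the 20 list genes that matched the table, Hmgcs1, Msmo1 and Srebf2. Here too the list was counted by gene, and the 20 genes have 28 windows. Hmgcs1 and Srebf2 fell and Msmo1, a sterol oxidase, had a log2 fold change of -0.14 (adjusted p = 0.465). The windows of the 2 genes that fell are shown, with the core in capitals at 137 (Hmgcs1) and 162 (Srebf2) bases before the start.
Hmgcs1 (chr13:119690101-119690400, plus strand): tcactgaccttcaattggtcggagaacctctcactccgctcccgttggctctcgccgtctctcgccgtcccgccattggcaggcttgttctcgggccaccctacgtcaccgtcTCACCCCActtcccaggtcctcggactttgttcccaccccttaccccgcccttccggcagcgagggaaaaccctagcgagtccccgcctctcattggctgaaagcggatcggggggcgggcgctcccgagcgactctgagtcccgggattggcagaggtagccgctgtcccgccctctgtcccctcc
Srebf2 (chr15:82147019-82147318, plus strand): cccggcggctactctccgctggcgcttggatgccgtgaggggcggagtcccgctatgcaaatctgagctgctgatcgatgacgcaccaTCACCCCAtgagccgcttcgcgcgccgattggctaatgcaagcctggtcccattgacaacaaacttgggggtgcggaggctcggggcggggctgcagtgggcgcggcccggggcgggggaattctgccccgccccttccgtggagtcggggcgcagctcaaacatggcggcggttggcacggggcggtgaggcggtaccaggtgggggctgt

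Stress genes rose in part. Of 26 tested immediate early genes, which are transcribed within minutes of a stimulus, 14 rose and 6 fell, and all 14 that rose were highest in the LN cisplatin libraries. Egr2, a zinc finger transcription factor, had 84.4, 82.7 and 80.3 CPM in the cisplatin libraries and 27.1, 34.04 and 35.5 CPM in the PBS libraries (log2 fold change 1.37 ± 0.116, adjusted p = 1.79e-08). Egr3 had 21.7, 19.05 and 15.6 CPM in the cisplatin libraries and 8.14, 5.67 and 7.28 CPM in the PBS libraries (log2 fold change 1.41 ± 0.221, adjusted p = 9.78e-05). Egr1 took the opposite direction, with 471, 472 and 457 CPM in the cisplatin libraries and 632, 633 and 723 CPM in the PBS libraries (log2 fold change -0.50 ± 0.0544, adjusted p = 5.47e-07), and so did Jun (log2 fold change -0.37, adjusted p = 0.000379). Of 23 tested heat shock chaperones 11 rose and 1 fell, but 7 rose without cisplatin replicate 1 or PBS replicate 1 and 6 without PBS replicate 3, and 0 fell without cisplatin replicate 1 or PBS replicate 3. Dnajb1, a cochaperone of HSP70, had 121, 128 and 123 CPM in the cisplatin libraries and 81.02, 72.2 and 85.2 CPM in the PBS libraries (log2 fold change 0.63 ± 0.0802, adjusted p = 5.79e-06), and Hsph1, which recharges HSP70, had 61.2, 57.8 and 63.4 CPM in the cisplatin libraries and 35.7, 45.4 and 35.97 CPM in the PBS libraries (log2 fold change 0.65 ± 0.115, adjusted p = 0.000383). Hspa1a and Hspa1b, the near-identical stress-induced HSP70 genes, rose by 0.33 (adjusted p = 0.00162) and 0.33 (adjusted p = 0.00377).

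Of 31 tested genes of the unfolded protein and integrated stress response, 9 rose and 22 did not pass. Of all tested genes 6.15% rose. Hspa5, the main chaperone of the endoplasmic reticulum, had 955, 854 and 945 CPM in the cisplatin libraries and 622, 645 and 629.9 CPM in the PBS libraries (log2 fold change 0.54 ± 0.0532, adjusted p = 1.62e-07). Syvn1, a ubiquitin ligase that disposes of misfolded proteins there, had 55.4, 55.2 and 52.7 CPM in the cisplatin libraries and 38.4, 28.4 and 27.8 CPM in the PBS libraries (log2 fold change 0.78 ± 0.133, adjusted p = 0.000282). Plasma cells are rich in such genes, and 4 of 7 tested plasma cell markers rose while 2 fell. Jchain, which joins antibody units, had 39.3, 37.5 and 37.5 CPM in the cisplatin libraries and 7.37, 9.80 and 4.71 CPM in the PBS libraries, with all cisplatin values several times above all PBS values (log2 fold change 2.41 ± 0.235, adjusted p = 1.32e-07). Mzb1, an antibody-folding cofactor, rose by 1.84 (adjusted p = 0.000307) and Derl3 by 2.28 (adjusted p = 0.00533). Irf4 and Prdm1, which plasma cells also need, were the 2 that fell, and the marker sum was 268.6 to 288.1 CPM with cisplatin and 260.8 to 301.7 CPM with PBS. The part of plasma cells in the rise of these chaperones was not tested. Of the 8 listed markers 1 averaged under 1 CPM, and no marker was at 0 in all 6 libraries.

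DNA repair genes and p53 targets were read next. Of 35 tested crosslink and nucleotide excision repair genes 0 rose and 1 fell by edgeR and by DESeq2, with 4 higher and 4 lower at an unadjusted p under 0.05 in edgeR and a median log2 fold change of 0.0049. The one that fell was Fancd2, the central protein of the Fanconi anemia pathway, with 22.8, 28.4 and 21.4 CPM in the cisplatin libraries and 35.3, 33.01 and 38.5 CPM in the PBS libraries (log2 fold change -0.55 ± 0.140, adjusted p = 0.0102), and this call did not hold without replicate 1 of the cisplatin libraries (adjusted p = 0.0607) or replicate 3 of the PBS libraries (adjusted p = 0.0646). Xpc, which finds bulky DNA lesions, had 16.98, 19.7 and 19.3 CPM in the cisplatin libraries and 20.5, 18.1 and 19.3 CPM in the PBS libraries (log2 fold change -0.06 ± 0.164, adjusted p = 0.872). Of 26 tested p53 targets 4 rose and 2 fell, where 6.15% and 4.82% of all tested genes did, with a median log2 fold change of 0.09. The 4 that rose were Sesn1, Phlda3, Sulf2 and Btg2, and 0 of them passed without replicate 1 of the cisplatin libraries. Sesn1, a stress-induced regulator of growth signalling, had 28.7, 23.6 and 22.6 CPM in the cisplatin libraries and 18.6, 16.5 and 15.4 CPM in the PBS libraries (log2 fold change 0.58 ± 0.172, adjusted p = 0.0318, and 0.171 without that library). The 2 that fell, Polk and Pmaip1, did not pass without replicate 1 or 3 of the cisplatin libraries. Cdkn1a, the p53 target that halts the cell cycle, had 907, 979 and 987 CPM in the cisplatin libraries and 1078, 862 and 1014 CPM in the PBS libraries. Its groups overlapped (log2 fold change -0.04 ± 0.0652, adjusted p = 0.745). Mdm2, which degrades p53, had 148, 160.1 and 139 CPM in the cisplatin libraries and 138, 128 and 134 CPM in the PBS libraries (log2 fold change 0.16 ± 0.0706, adjusted p = 0.161), and Bax, a p53 target of apoptosis, had a value of -0.05 (adjusted p = 0.77). None of these 3 genes passed. In the BCL2 family 5 of 16 fell and 11 did not pass, where 4.82% of all tested genes fell. Without replicate 1 or 3 of the cisplatin libraries 2 of the 16 fell, and without cisplatin replicate 2 or PBS replicate 2 or 3 the number was 3. One whose call held with each library left out was Bmf, a sensor that promotes cell death (log2 fold change -0.62 ± 0.138, adjusted p = 0.00385).

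Lysosomal genes and glucocorticoid-responsive genes also changed. Of 35 tested genes of the lysosome and its proton pump, 9 rose and 26 did not pass, with a median log2 fold change of 0.10. Of all tested genes 6.15% rose and 4.82% fell. Cd68, a lysosomal membrane protein of phagocytes, had 78.8, 76.5 and 78.6 CPM in the cisplatin libraries and 46.9, 38.7 and 43.3 CPM in the PBS libraries (log2 fold change 0.85 ± 0.102, adjusted p = 2.62e-06). Of 20 tested glucocorticoid-responsive genes 7 rose and 2 fell. Tsc22d3, which encodes the leucine zipper protein GILZ, had 419.6, 412 and 373 CPM in the cisplatin libraries and 241, 271 and 245 CPM in the PBS libraries, with no overlap between the groups (log2 fold change 0.68 ± 0.0632, adjusted p = 6.36e-08). Fkbp5, a cochaperone of the glucocorticoid receptor, had 67.9, 65.5 and 68.7 CPM in the cisplatin libraries and 38.8, 50.03 and 41.1 CPM in the PBS libraries (log2 fold change 0.65 ± 0.122, adjusted p = 0.00073). Il1r2, a decoy receptor for interleukin 1, had 23.7, 21.6 and 28.4 CPM in the cisplatin libraries and 9.30, 2.58 and 9.85 CPM in the PBS libraries (log2 fold change 1.69 ± 0.257, adjusted p = 6.67e-05). The 2 that fell, Nfkbia and Zfp36, changed by -0.32 and -0.25 (adjusted p = 0.00326), and Nfkbia is also on the NF-kB list.

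Of 33 tested type I interferon genes 2 rose and 2 fell, shares near the 6.15% and 4.82% of all tested genes. The 2 that rose, Oasl2 (log2 fold change 0.63, adjusted p = 0.0321) and Irf7 (log2 fold change 0.51, adjusted p = 0.0156), did not pass without replicate 3 of the cisplatin libraries or replicate 2 or 3 of the PBS libraries. Of 21 tested guanylate-binding proteins and interferon gamma genes 2 rose and 5 fell. Without replicate 1 or 2 of the cisplatin libraries 1 rose, without PBS replicate 2 the number that fell was 2, and without cisplatin replicate 2 or PBS replicate 3 it was 3. Mx1, an antiviral GTPase, had 121, 119 and 127 CPM in the cisplatin libraries and 173, 182 and 174 CPM in the PBS libraries (log2 fold change -0.53 ± 0.0689, adjusted p = 8.42e-06), and Gbp5, a guanylate-binding protein, had 119, 118 and 121 CPM in the cisplatin libraries and 181, 218 and 191 CPM in the PBS libraries (log2 fold change -0.72 ± 0.0726, adjusted p = 2.27e-07). Isg15, a ubiquitin-like interferon target, had 11.4, 13.6 and 13.99 CPM in the cisplatin libraries and 14.7, 11.3 and 8.99 CPM in the PBS libraries, and these groups overlapped (log2 fold change 0.13 ± 0.224, adjusted p = 0.79). Of 27 tested dendritic cell transcription factors 8 fell and 3 rose, or 5 rose without PBS replicate 1. Beside Irf4, Irf8, which cDC1 need, was lower with cisplatin at 710.2, 725 and 758 CPM against 884, 847 and 873 CPM with PBS (log2 fold change -0.25 ± 0.0472, adjusted p = 0.000803), and Klf4 and Cebpb, factors of myeloid differentiation, rose by 0.64 (adjusted p = 0.00779) and 0.67 (adjusted p = 0.00121). Zbtb46, the factor that marks conventional dendritic cells, did not pass (log2 fold change -0.08, adjusted p = 0.405).

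Genes that handle platinum, copper and oxidants were read for their link to the drug. Of 20 tested members 4 rose and 2 fell, where 6.15% and 4.82% of all tested genes did. The 2 falls, of Mt1 and Keap1, did not pass without cisplatin replicate 1, PBS replicate 1 or PBS replicate 3, and the rise of Txnrd1 did not pass in 5 of the 6 fits that left out a library. Gclc, the first enzyme of glutathione synthesis, had 395, 414 and 404 CPM in the cisplatin libraries and 273, 288 and 267 CPM in the PBS libraries (log2 fold change 0.55 ± 0.0563, adjusted p = 2.37e-07), and Srxn1 and Nfe2l2, a target of the oxidant sensor NRF2 and the gene of NRF2 itself, rose by 0.45 (adjusted p = 0.00492) and 0.40 (adjusted p = 6.05e-05). Slc31a1, the copper transporter through which cisplatin can enter cells, had 21.4, 26.2 and 17.3 CPM in the cisplatin libraries and 13.6, 18.1 and 18.4 CPM in the PBS libraries, with groups that overlapped (log2 fold change 0.40 ± 0.192, adjusted p = 0.204). Hmox1, another NRF2 target, had a log2 fold change of 0.33 (adjusted p = 0.511).

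Among the largest rises were genes of pancreatic acinar cells, which make digestive enzymes. Of the 15 largest rises that did not overlap between groups, 10 were such genes: Sycn, Clps, Reg1, Try5, Try4, Cpb1, Pnliprp1, Prss2, Cela3b and Cela2a, with log2 fold changes of 2.55 to 3.34. Zg16, a secretory granule protein found there and in gut, rose by 2.54 (adjusted p = 6.32e-07). Cela2a, an elastase, had 143, 163 and 174 CPM in the cisplatin libraries and 30.2, 26.8 and 24.4 CPM in the PBS libraries (log2 fold change 2.55 ± 0.111, adjusted p = 2.57e-13). Clps, the cofactor of pancreatic lipase, had 40.9, 39.1 and 37.5 CPM in the cisplatin libraries and 4.26, 4.64 and 4.71 CPM in the PBS libraries (log2 fold change 3.11 ± 0.214, adjusted p = 4.51e-10). A list of 36 acinar genes drawn up after these values were seen had 26 tested members, of which 23 rose, and it summed to 1141.2 to 1269.4 CPM with cisplatin and 212.4 to 240.7 CPM with PBS. All 23 were highest in the LN cisplatin libraries. In TDLN mDC 23 of the 26 rose, where 14.1% of tested genes did, and the sum was 277.7 to 314.4 CPM with cisplatin and 115.8 to 118.1 CPM with PBS. In LN rDC 21 rose, where 12.8% of tested genes did, and the sum was 125.8 to 135.9 CPM with cisplatin and 27.3 to 41.2 CPM with PBS. The 9 islet hormone and marker genes, a list drawn up in the same way, summed to 2.9 to 3.7 CPM with cisplatin and 1.5 to 5.4 CPM with PBS, and none of them was tested. Trypsin, elastase and amylase genes are families of close copies, so single values within them are uncertain. The labels do not say whether tissue beside the nodes was collected, and the source of this RNA was not tested.

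Other large rises were in genes of differing kinds. Ngp, a protein of neutrophil granules, had 9.19, 7.43 and 11.1 CPM in the cisplatin libraries and 0, 1.03 and 0.856 CPM in the PBS libraries (log2 fold change 3.92 ± 0.619, adjusted p = 0.000111), the largest log2 value and a rise from near 0. Only 2 of the 13 listed neutrophil markers were tested, and of these Ngp alone rose. The 13 summed to 27.1 to 37.0 CPM with cisplatin and 9.8 to 12.4 CPM with PBS. Fcrls, an Fc receptor-like protein, had 13.4, 10.98 and 11.5 CPM in the cisplatin libraries and 2.71, 0 and 2.14 CPM in the PBS libraries (log2 fold change 2.77 ± 0.520, adjusted p = 0.000737). Ranbp9, a scaffold of an E3 ubiquitin ligase (ENSMUSG00000038546, GRCm38 chromosome 13, 43402675 to 43481282, minus strand), had 37.9, 33.9 and 37.5 CPM in the cisplatin libraries and 2.71, 2.58 and 4.71 CPM in the PBS libraries (log2 fold change 3.43 ± 0.234, adjusted p = 3.95e-10). In TDLN mDC it had 59.7, 56.3 and 54.2 CPM with cisplatin and 10.2, 13.8 and 13.4 CPM with PBS, so the LN PBS group was the lowest of the 4. Cul3, a cullin of another ubiquitin ligase, Znrf2 and Qk were chosen after their values were seen and share this order. Cul3 had 67.4, 73.9 and 60.1 CPM in the cisplatin libraries and 10.9, 13.4 and 13.3 CPM in the PBS libraries (log2 fold change 2.44 ± 0.173, adjusted p = 7.24e-10), and in TDLN mDC it had 63.8, 86.8 and 93.1 CPM with cisplatin and 64.3, 67.2 and 70.1 CPM with PBS. Znrf2 had 47.9, 54.2 and 51.5 CPM in the cisplatin libraries and 8.53, 10.3 and 8.14 CPM in the PBS libraries, and in the TDLN it had 54.7, 57.7 and 52.8 CPM with cisplatin and 49.5, 50.9 and 49.1 CPM with PBS. Qk, an RNA-binding protein, had 92.99, 86.2 and 73.7 CPM in the cisplatin libraries and 20.9, 24.8 and 23.1 CPM in the PBS libraries (log2 fold change 1.90 ± 0.126, adjusted p = 2.69e-10). In all 4 genes the 3 LN PBS libraries were below the other 9 mDC libraries.

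**Figure D4:**
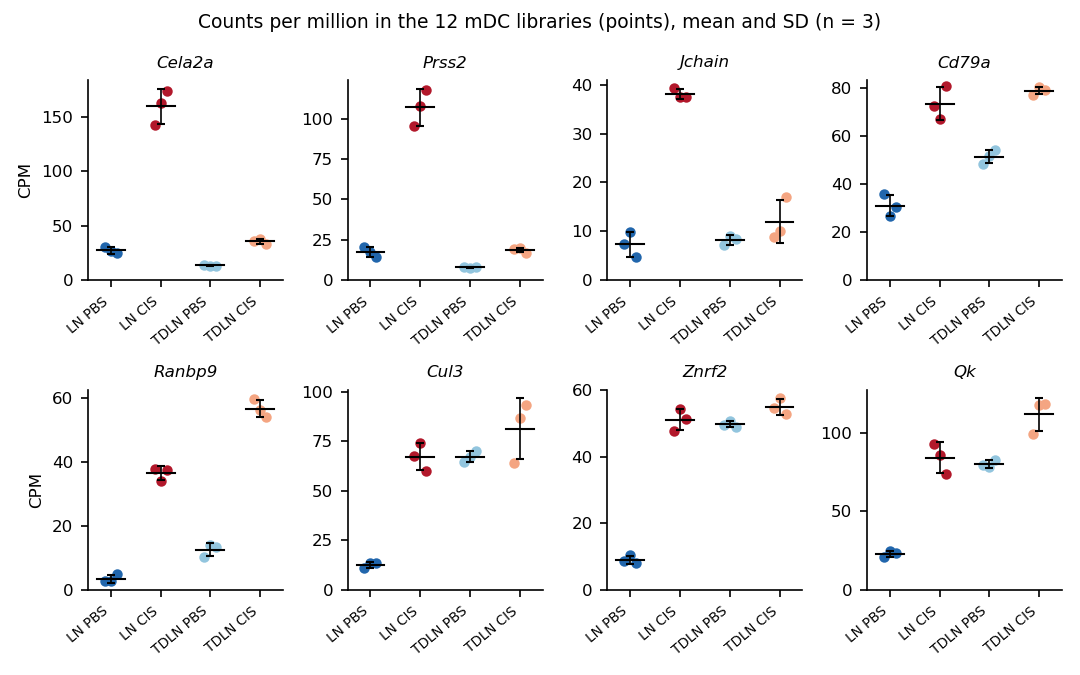
CPM (vertical axes, each from 0) of 8 genes in the 12 mDC libraries, 3 points per group with mean and SD. Cela2a, Prss2 and Jchain are highest in LN cisplatin, whereas Cd79a, Ranbp9, Cul3, Znrf2 and Qk are lowest in LN PBS.

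That distinction can be drawn for the calls as a whole. Of the 770 genes that rose, 461 (59.9%) had all 3 LN cisplatin values above the other 9 mDC libraries, an order that 5.65% of tested genes showed, and 151 (19.6%) had all 3 LN PBS values below the other 9 (2.26% of tested genes). Of the 604 that fell, 309 (51.2%) were lowest in LN cisplatin (4.56%) and 148 (24.5%) were highest in LN PBS (2.44%). The genes that rose or fell were chosen with these 6 libraries, so the shares describe where the other groups lay. All in all 3225 genes (25.8%) did not overlap between LN cisplatin and LN PBS.

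Of the 15 largest falls without overlap, 6 are described here. Nuak1, a kinase related to AMPK, had 2.78, 1.61 and 1.65 CPM in the cisplatin libraries and 12.02, 5.67 and 8.14 CPM in the PBS libraries (log2 fold change -2.07 ± 0.385, adjusted p = 0.000668). Ccl21a, the CCR7 ligand made by stromal cells of the node, had 1.67, 1.61 and 3.29 CPM in the cisplatin libraries and 6.20, 10.8 and 9.85 CPM in the PBS libraries (log2 fold change -2.06 ± 0.376, adjusted p = 0.000561). Sema7a, a membrane semaphorin, had 8.63, 10.3 and 10.3 CPM in the cisplatin libraries and 28.3, 32.5 and 24.8 CPM in the PBS libraries (log2 fold change -1.55 ± 0.216, adjusted p = 2.21e-05). Ctnnd1, the catenin that holds cadherins at the membrane, had 19.8, 17.8 and 18.9 CPM in the cisplatin libraries and 43.03, 43.8 and 46.7 CPM in the PBS libraries (log2 fold change -1.24 ± 0.136, adjusted p = 7.31e-07). In each of the 4 the groups did not overlap. Celsr1, an adhesion receptor, changed by -1.39 (adjusted p = 0.000612), and Mylk, a myosin kinase, by -1.23 (adjusted p = 0.00322). Actb, the beta actin gene often used as a reference, also fell, with 4589, 4754 and 5203 CPM in the cisplatin libraries and 8828, 7487 and 8734 CPM in the PBS libraries (log2 fold change -0.78 ± 0.0569, adjusted p = 1.05e-09).

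The response was set against that of TDLN mDC, in the same model. The cisplatin effect differed between the nodes for 1952 of 12519 genes (15.6%), being higher in the LN for 897 (7.17%) and lower for 1055 (8.43%). Across genes the 2 effects, which share no library, had a Pearson correlation of 0.0446 (12519 genes, which are not independent replicates). In the TDLN 1768 genes rose (14.1%) and 1648 fell (13.2%). Of the 26 immediate early genes 14 rose in the LN and 17 fell in the TDLN, and the difference itself was called for 20, each higher in the LN. Egr2 had 31.7, 24.7 and 29.3 CPM with cisplatin and 33.1, 34.3 and 34.1 CPM with PBS in the TDLN, and the log2 difference of its effects was 1.61 ± 0.161, adjusted p = 2.45e-07. Cholesterol synthesis genes showed 14 called differences, each lower in the LN, and Hmgcs1 in the TDLN had 246, 233 and 262 CPM with cisplatin and 265, 276 and 277 CPM with PBS (log2 difference -0.68 ± 0.0966, adjusted p = 3.34e-05). MHC class I genes had 14 lower and 3 higher differences of 25. Of 35 NF-kB genes 16 fell and 2 rose in the TDLN, and of 30 maturation genes 11 fell and 3 rose there.

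MHC class II genes rose in both nodes. In TDLN mDC 10 of the 19 genes rose and 1 fell, where 14.1% and 13.2% of all tested genes did. The difference was called for 2 of the 19, both higher in the LN, where 7.17% of all tested genes were. The first was H2-Ab1 (log2 difference 0.29 ± 0.0720, adjusted p = 0.00801) and the other Cd74 (0.34 ± 0.0713, adjusted p = 0.00194). For Ciita the difference was 0.09 ± 0.109, adjusted p = 0.637, and for H2-DMa 0.22 ± 0.128, adjusted p = 0.269. The lectins followed another pattern. Mgl2 had 7.09, 7.55 and 8.62 CPM with cisplatin and 9.57, 8.61 and 8.38 CPM with PBS in the TDLN (log2 difference 2.84 ± 0.236, adjusted p = 1.36e-08). Cd209a fell there, from 14.5, 13.02 and 12.99 CPM with PBS to 8.10, 5.49 and 7.24 CPM with cisplatin (log2 difference 3.25 ± 0.215, adjusted p = 3.83e-10). Cd36 there had 9.78, 11.7 and 6.90 CPM with cisplatin and 6.47, 7.88 and 6.17 CPM with PBS (log2 difference 1.21 ± 0.323, adjusted p = 0.0124). Cd274 rose in the TDLN by 0.46 ± 0.0512 on the log2 scale while it fell in the LN (log2 difference -0.75 ± 0.0758, adjusted p = 3.28e-07). Of 26 tested p53 targets 10 had higher differences and 1 lower, where 7.17% and 8.43% of all tested genes did. In the TDLN 10 of the 26 fell, where 13.2% of all tested genes did. The TDLN comparison sets deep PBS libraries against shallower cisplatin libraries, so depth and treatment move together there. After the deep libraries were thinned to 3000000 counts, a step added after the data were seen, 1601 genes differed between the nodes, of which 1510 were among the 1952.

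**Figure D5:**
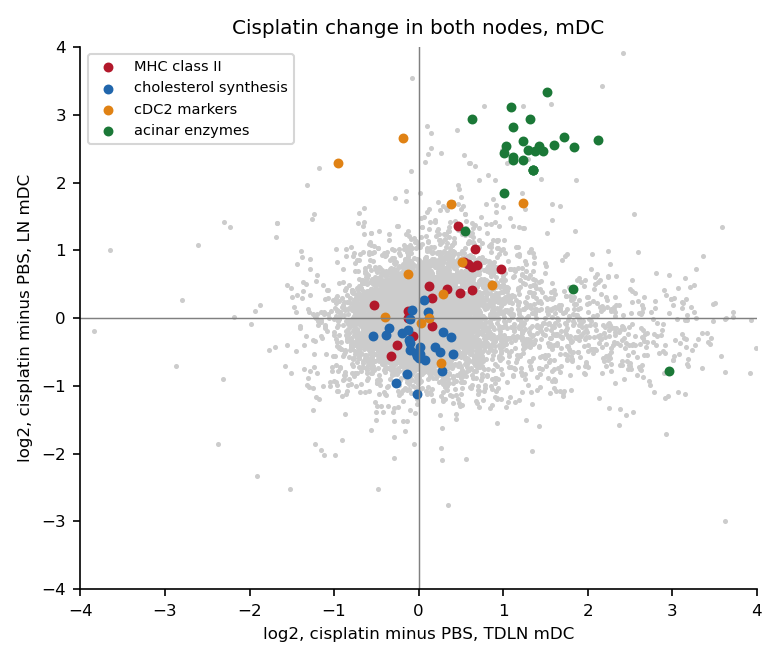
Log2 fold change with cisplatin in LN mDC (vertical axis) against TDLN mDC (horizontal axis), 1 point per gene, with 21 genes beyond the plotted range of 4. MHC class II genes and acinar enzymes lie right of and above 0 for the most part, cholesterol synthesis genes lie below 0 near the vertical line, and the 2 cDC2 markers at the upper left are Mgl2 and Cd209a.

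Against the rDC of the same nodes the effect differed for 2233 of 13748 genes (16.2%), higher in mDC for 1299 (9.45%) and lower for 934 (6.79%). The correlation across genes was -0.0493 (13748 genes). In rDC 12.8% of tested genes rose and 11.3% fell. Of the 19 MHC class II genes 11 fell in rDC, and 12 differences were called, each higher in mDC. H2-Ab1 in rDC had 11612, 10515 and 10605 CPM with cisplatin and 14417, 13547 and 14585 CPM with PBS, a change of -0.38 ± 0.0620 (log2 difference 1.24 ± 0.0882, adjusted p = 2.74e-09). Ciita in rDC had 694, 637 and 642 CPM with cisplatin and 736, 707 and 747 CPM with PBS (log2 difference 0.97 ± 0.0996, adjusted p = 5.44e-07). For both genes the rDC level was above the mDC level with either treatment, and the gap was smaller with cisplatin. Cell type markers changed in rDC too. Of 16 tested T cell markers 14 rose and 0 fell. Their list summed to 766.7 to 793.4 CPM with cisplatin and 370.3 to 441.4 CPM with PBS. Of 12 natural killer cell markers 11 rose and 0 fell, and of 12 markers of conventional dendritic cell 1 11 fell and 1 rose. The part of the cell mix in the rDC changes was not tested. Immediate early genes had 15 called differences, each higher in mDC, with 18 falling in rDC. For cholesterol synthesis genes 9 fell and 1 rose in rDC, and 5 differences were lower in mDC and 1 higher. Of 25 MHC class I genes 13 fell and 1 rose in rDC, and 2 differences were lower in mDC and 5 higher. Of 30 maturation genes 12 fell and 2 rose in rDC, and of 35 NF-kB genes 11 fell and 2 rose. Cd209a in rDC had 251, 241 and 255 CPM with cisplatin and 337, 339 and 315 CPM with PBS (log2 difference 2.73 ± 0.129, adjusted p = 3.50e-12). In rDC of the LN too the PBS libraries were the deeper ones. After thinning to 3000000 counts 1890 genes differed between the cell types, of which 1761 were among the 2233.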

How the data were processed

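Polyadenylated RNA was sequenced from 3 libraries per group. Per the submitters' processing notes, the authors aligned reads with STAR to GRCm38 and used RSEM 1.3.0 and DESeq2 1.38.3. The gene annotation is not given in the sources used here. The deposited expected counts are whole numbers per gene, and the TPM values deposited by the authors were not used for any value printed here. Columns naming wild type without a tumor were taken as LN because the tumor columns match the TDLN labels.

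The expected counts of the 12 mDC libraries were fitted in 1 model of 4 groups with edgeR 4.0.16 (R 4.3.3), TMM scaling, its filter on low counts and the quasi-likelihood test, with Benjamini-Hochberg adjustment at 0.05. The node difference came from the same model and the cell type difference from the 12 LN dendritic cell libraries. The standard error is the log2 fold change over the square root of F. CPM are scaled within each model. The fit was checked on data simulated from its own dispersions, with changes set in genes above 4 CPM. For the LN comparison 46.3% of 1.5-fold, 80.6% of 2-fold and 97% of 4-fold changes were recovered. Of 1.5-fold changes 35.8% were recovered for the node difference and 31.3% for the cell type difference. A gene that did not pass is therefore not shown to be unchanged.

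Genes were named by size (the 15 largest rises and falls without overlap, at a mean of at least 4 CPM), by list (up to 6 per direction) and by difference (8 per direction), leaving out predicted genes and receptor segments. The members and lists were chosen with earlier results of these data known, and the pancreatic lists after the values were seen. Alternatives were DESeq2 1.42.0, other scalings, no filter, a replicate block, a test against 1.5-fold, the 6 libraries alone, each library left out and, added after seeing the data, thinning of deep libraries. Some genes are not reported here.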

Additional observations from a re-analysis of the deposited data

Results flagged for a closer look

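The effect of cisplatin on LN mDC was compared with that on TDLN mDC by an interaction contrast, and 1952 genes differed. The genes with the largest differences are given here as the LN effect minus the TDLN effect on the log2 scale, each past an adjusted p of 0.05 in edgeR's quasi-likelihood test. Higher in the LN were Cd209a by 3.25, Mgl2 by 2.84, Cd209e by 2.72, Znrf2 by 2.37, Mmp12 by 2.31, Reg1 by 2.31, Tcea1-ps1 by 2.28 and Ear2 by 2.27. Cd209a, Mgl2 and Cd209e are lectins, Mmp12 is a protease of macrophages, and Reg1 is a secreted protein of the exocrine pancreas. Lower in the LN were Zfp433 (-5.25), Flg2 (-3.61), Fat3 (-3.61), Frem2 (-3.60), Duxf3 (-3.58), Eppk1 (-3.44), Fat2 (-3.38) and Muc16 (-3.36). Flg2, Fat2 and Eppk1 are known from epithelia. Of 4 tested keratinocyte markers 0 rose and 0 fell in LN mDC. In TDLN mDC 1 of the 4 rose and 0 fell, where 14.1% of all tested genes rose. A lower difference can stem from a rise in the TDLN and does not by itself mean a fall in the LN. The TDLN PBS libraries were also deeper than the TDLN cisplatin libraries.

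The same contrast between mDC and rDC of the LN gave 2233 genes. Higher in mDC than in rDC, as log2 differences of the effects, were Nnt by 4.31, which turned to -4.27 without mDC LN cisplatin replicate 1 (adjusted p = 0.659) and did not pass in DESeq2 (adjusted p = 0.577), Mgl2 by 3.11, Mmp12 by 3.04, Prph by 3.01, Cd209a by 2.73, Sirpb1a by 2.72, Hist1h2ap by 2.63 and Clec4b1 by 2.60. Lower in mDC were Klrc1 (-5.65), Pde2a (-4.57), Klrb1c (-4.52), Gal3st2 (-3.81), Cxcr6 (-3.72), Btbd11 (-3.47), Cd163l1 (-3.42) and Rnf152 (-3.40). Nnt has 2 gene entries that can share reads, the one given is ENSMUSG00000116207, and its values are uncertain. Klrc1 and Klrb1c are receptors of natural killer cells. A lower difference does not by itself mean a fall in mDC. Of 12 natural killer cell markers 11 rose in LN rDC, and of the 3 tested in LN mDC 0 rose and 0 fell. Mgl2, Cd209a and Mmp12 are in both sets of larger effects in LN mDC, which share the 6 LN mDC libraries.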

How the results depend on the processing

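Genes that rose numbered 770 and ranged from 608 to 751 with each LN mDC library left out. Genes that fell numbered 604 and ranged from 399 (without cisplatin replicate 1) to 572, with 408 without PBS replicate 3. Without the low-count filter 384 fell, 5357 genes differed between nodes and 7457 between cell types. Against a 1.5-fold change 117 rose and 14 fell. The causes were not tested. Leaving libraries out gave 1592 to 2355 genes that differed between nodes and 1676 to 2475 between cell types. The other scalings, DESeq2, thinning and the 6 LN mDC libraries alone stayed within 1.5 times of each count they were run on. With the replicate number as a block 720 rose, 559 fell, 1825 differed between nodes and 2150 between cell types. Same-numbered LN mDC deviations had correlations of -0.212, 0.0169 and -0.0134. From 3 libraries per group these cannot show whether same-numbered libraries share an origin, which the labels do not state. Of 241 calls on named genes, 172 held under every alternative but the 1.5-fold test, which 51 passed, and 0 changed sign. The cell type difference for Nnt (ENSMUSG00000116207) reversed to -4.27 without mDC LN cisplatin replicate 1 (adjusted p = 0.659) and was 11.58 without rDC LN cisplatin replicate 2, and it did not pass in DESeq2 (adjusted p = 0.577). At 2002713 to 3653407 counts per LN mDC library, genes of a few CPM rest on few counts.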
